A study of Mus musculus with 6 samples.

Results

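AP-1 is a family of transcription factors made of pairs of basic leucine zipper (bZIP) proteins, and 10 of its genes were followed in the mouse hippocampus after cerebral ischemia and reperfusion (I/R). The 10 genes were chosen by name from the 41386 genes of the deposited table: Fos, Fosb, Fosl1 and Fosl2 of the Fos family, Jun, Junb and Jund of the Jun family, and Atf3, Batf and Maff of related families. Each was named on 1 row of the table and all 10 passed the filter on low counts. In the I/R group the left middle cerebral artery of adult C57BL/6 mice, 56 days old, was blocked by a filament for 1.5 h and flow was then restored for 24 h. Sham mice had the same surgery with no occlusion. According to the study's methods the mice were males and the hippocampi of the operated side were pooled. Each pool held 3 hippocampi, so each p-value below rests on how far pools differed, with no measure of the spread among individual mice. There were 3 libraries in each group, with no batch given in the labels, and the total per library ran from 37493042 to 44788547 counts.

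Fos and Jun proteins bind DNA as pairs. Jun proteins pair with one another or with a Fos protein, whereas Fos proteins need a partner from another family, usually Jun. The pairs read a short palindrome, TGACTCA, or the closely related cyclic AMP response element, TGACGTCA, in the promoters and enhancers of genes for growth, cell death, inflammation and matrix turnover. Fos and Jun are immediate early genes: growth factors, calcium entry and cell stress switch on their transcription within minutes, through MAP kinases, the serum response factor (SRF) and CREB. In the brain Fos mRNA is a common marker of recently active neurons, and Jun and Atf3 are known markers of injured ones.

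The promoters of the genes that differed most between I/R and sham are shown with those of Jun, whose protein is known to act on its own promoter, and of Jund, the member with no detected change. Each line gives the 120 bases before the RefSeq transcription start on GRCm38.p6, 5′ to 3′ on the gene's strand, and capitals mark TGACGT read on either strand, its 8-base form TGACGTCA in Maff, and the variant TGACATCA of the Jun promoter.
Fos (chr12:85473770-85473889, plus strand): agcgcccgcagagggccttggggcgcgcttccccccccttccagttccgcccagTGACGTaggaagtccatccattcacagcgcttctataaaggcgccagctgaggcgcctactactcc
Atf3 (chr1:191183334-191183453, minus strand): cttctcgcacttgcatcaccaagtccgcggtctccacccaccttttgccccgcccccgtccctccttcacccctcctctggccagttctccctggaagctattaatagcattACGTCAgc
Maff, second window (chr15:79347400-79347519, plus strand): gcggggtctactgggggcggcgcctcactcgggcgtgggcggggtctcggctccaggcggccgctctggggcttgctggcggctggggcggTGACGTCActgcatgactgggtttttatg
Batf (chr12:85686600-85686719, plus strand): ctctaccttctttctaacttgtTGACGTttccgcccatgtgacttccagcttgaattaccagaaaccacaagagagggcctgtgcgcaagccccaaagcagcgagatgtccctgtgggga
Jun (chr4:95052223-95052342, minus strand): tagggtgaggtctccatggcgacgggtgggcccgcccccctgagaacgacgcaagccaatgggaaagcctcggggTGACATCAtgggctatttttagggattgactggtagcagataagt
Jund (chr8:70697619-70697738, plus strand): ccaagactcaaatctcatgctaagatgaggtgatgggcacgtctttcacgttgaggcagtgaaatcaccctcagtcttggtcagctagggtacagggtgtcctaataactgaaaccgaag

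RefSeq windows of 300 bases, 250 before and 50 after the start, were at hand for 9 members, with 11 windows in all. They were searched on both strands for 6 motifs whose letters were chosen after the sequences and the expression values had been seen, so the matches are a description with no test. TGACGT, the first letters of the cyclic AMP response element, began at position -66 of Fos and -98 of Batf, counted back from the start. The second Maff window held the whole palindrome TGACGTCA from -29, which includes TGACGT on both strands. ACGTCA began at -8 of Atf3. TGACATCA, the variant known from the Jun promoter, began at -45 of Jun and at -45 of the third Maff window. TATAAA, the letters of the TATA box, began at -33 of Fos and at 1 of Junb, where 1 is the first transcribed base. In Junb, where it does not lie before the start, it is a match of letters only. The AP-1 site TGACTCA and the CArG box read by SRF were in 0 of the 11 windows, which says only that these letters were not in these 300 bases. Among 32851 RefSeq windows, TGACGT was in 7.51%, TGACGTCA in 1.79%, TGACATCA in 3.62%, TGACTCA in 5.20%, TATAAA in 13.6% and the CArG box in 1.63%.

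After I/R, 9 of the 10 AP-1 genes rose and none fell. Atf3 rose most, 85.9-fold, followed by Maff (17.2-fold), Fos (13-fold) and Batf (12.9-fold). Fosl1, Fosb, Fosl2, Jun and Junb rose between 2.08-fold and 3.0-fold, and Jund, at 1.06-fold, did not pass the test. A gene was called a DEG at an adjusted p under 0.05 in edgeR's quasi-likelihood test over 18569 genes and a fold change over 1.2. By that rule 21.8% of all tested genes were higher and 19.9% lower in I/R. The count of members called lower was 0 also at an unadjusted p under 0.05, with DESeq2 and with limma-voom. The median log2 fold change was 1.56 over the 10 members and 0.03 over all tested genes. The members were chosen with earlier results of these data known, so their counts and median carry that choice. With a fold change over 2, the same count of 9 members was called, whereas 10.2% of all tested genes were called higher. That rule cuts on the estimate, and Junb, the lowest of the 9, was at 2.08-fold, from 1.86 to 2.32 within 1 SE. In 9 members the 3 I/R libraries all lay above the 3 sham libraries, which was so for 29.3% of the tested genes, while groups that did not overlap in either direction were found for 57.4%. The exact two-sided permutation p was 0.1 for each of the 9, the smallest that 3 libraries against 3 allow. In bulk tissue, a change in the number of cells that express a gene and a change in mRNA per cell cannot be told apart.

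**Figure D1:**
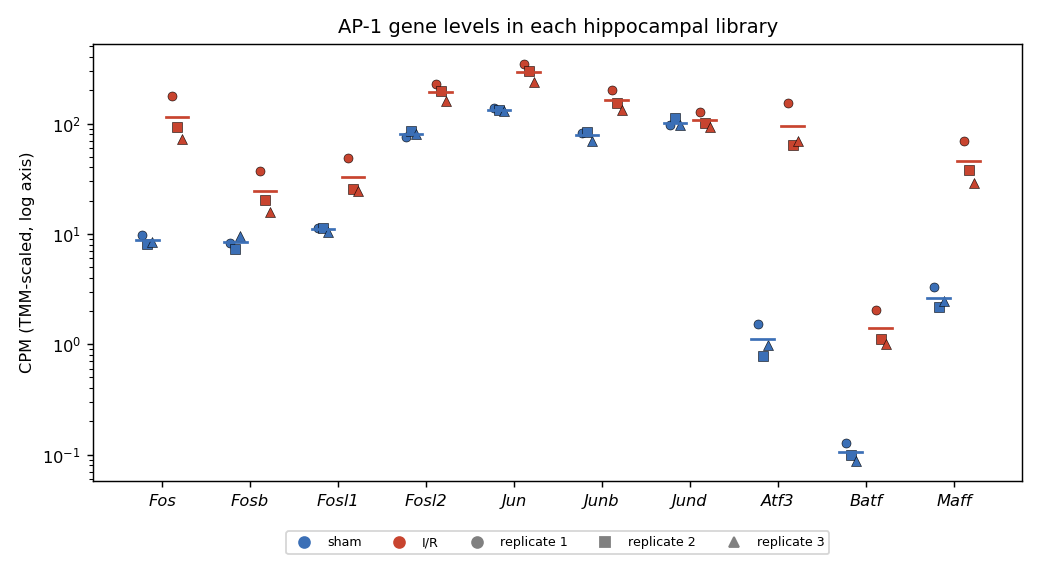
Level of each AP-1 gene in each library, as CPM (log axis), with I/R and sham libraries as separate colours and the group mean as a bar. The I/R points lie above the sham points for 9 genes, farthest for Atf3 (63.6 to 152 against 0.787 to 1.54 CPM), whereas those of Jund overlap (92.9 to 127 against 96.4 to 111 CPM).

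Levels below are CPM, counts relative to the library size after scaling with edgeR's TMM method, with mean ± SD of 3 libraries, and positions are those of the deposited table on the BALB/cJ assembly. Among the Fos family, Fos itself encodes the founding partner of Jun and carries a strong activation domain. It lies on the plus strand of chromosome 12, 83319320 to 83322700 (MGP_BALBcJ_G0019898). The raw counts of Fos were 8120, 3716 and 2885 for I/R replicates 1, 2 and 3, against 381, 332 and 290 for the sham replicates. As CPM, these were 178, 93.0 and 72.1 after I/R, against 9.76, 8.17 and 8.43 in the sham libraries. The lowest I/R library was 7.39 times the highest sham library, and I/R replicate 1 was 2.16 times the mean of the other two. Mean levels were 114 ± 56.3 CPM after I/R, against 8.79 ± 0.853 CPM for sham (SD, n = 3 for both), that is a log2 fold change of 3.70 ± 0.33 (SE, adjusted p = 0.000375). Fos had rank 251 of 18569 by log2 fold change.

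Fosb encodes FosB and, by splicing, the shorter and stable form known as ΔFosB, which gene counts do not separate. Its gene is on the minus strand of chromosome 7, 17148550 to 17155874 (MGP_BALBcJ_G0031751). Fosb was at 36.8, 20.3 and 15.8 CPM after I/R, against 8.27, 7.28 and 9.53 CPM in the sham libraries. Its groups did not overlap, but the lowest I/R library was only 1.66 times the highest sham library. The means of 24.3 ± 11 and 8.36 ± 1.13 CPM differed by a log2 fold change of 1.54 ± 0.30 (SE, adjusted p = 0.00519). Fosl1, which encodes Fra-1, a Fos protein without the activation domain of Fos that is linked to cell migration, lies on the plus strand of chromosome 19, 2274939 to 2284334 (MGP_BALBcJ_G0024672). Fosl1 was at 48.5, 25.6 and 24.5 CPM after I/R, against 11.3, 11.2 and 10.4 CPM in the sham libraries. The sham libraries were tightly grouped, and I/R replicate 1 again stood highest. The means of 32.9 ± 13.6 and 11 ± 0.502 CPM gave a log2 fold change of 1.59 ± 0.26 (SE, adjusted p = 0.00267).

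Fosl2 encodes Fra-2, the other Fos protein without that domain. The gene is on the plus strand of chromosome 5, 29736171 to 29758213 (MGP_BALBcJ_G0029410). Fosl2 was at 227, 198 and 159 CPM after I/R, against 75.7, 85.0 and 80.7 CPM in the sham libraries. Its I/R libraries were more alike than those of Fos, with I/R replicate 1 at 1.27 times the mean of the other two. The means of 194 ± 34.2 and 80.5 ± 4.67 CPM differed by a log2 fold change of 1.27 ± 0.14 (SE, adjusted p = 0.000664).

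In the Jun family, Jun encodes c-Jun, the classic substrate of the JNK kinases and the usual partner of Fos. It lies on the minus strand of chromosome 4, 92018047 to 92021234 (MGP_BALBcJ_G0028437), and its listed length of 3188 bases equals its span, so the table gives it no intron. The counts of Jun were 15817, 11993 and 9597 after I/R, against 5434, 5368 and 4427 in the sham libraries. The matching levels were 348, 300.01 and 240 CPM after I/R, against 139, 132 and 129 CPM in the sham libraries. The lowest I/R library was 1.72 times the highest sham library. The means of 296 ± 53.9 and 133 ± 5.36 CPM gave a log2 fold change of 1.15 ± 0.14 (SE, adjusted p = 0.000965). Junos, an antisense gene with 15 to 63 counts per library, overlaps Jun by 689 bases, and whether counting used the strand is not given in the sources used here.

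Junb encodes JunB, a weaker activator that can hold c-Jun back. Junb is on the minus strand of chromosome 8, 82656297 to 82658137 (MGP_BALBcJ_G0033860), with no intron in the table. Junb was at 201, 153 and 133 CPM after I/R, against 81.8, 83.5 and 69.0 CPM in the sham libraries. Its groups did not overlap, with the smallest gap among the 9 genes that rose, 1.59 times from the highest sham to the lowest I/R library. The means of 162 ± 35.1 and 78.1 ± 7.93 CPM gave a log2 fold change of 1.06 ± 0.16 (SE, adjusted p = 0.00199).

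Jund encodes JunD, which most tissues express at rest and which is known to oppose growth. Jund is on the plus strand of chromosome 8, 68335579 to 68338485 (MGP_BALBcJ_G0033698). Jund had 5783, 4080 and 3715 counts after I/R, against 3768, 4529 and 3318 in the sham libraries. As CPM, these were 127, 102 and 92.9 after I/R, against 96.5, 111 and 96.4 in the sham libraries. I/R replicate 1 was the highest of the 6 libraries and I/R replicate 3 the lowest, so the groups overlapped. The means were 107 ± 17.7 and 101 ± 8.64 CPM, with a log2 fold change of 0.08 and an SE of 0.13 (adjusted p = 0.643). The sign turned without I/R replicate 1, to -0.060 with an adjusted p of 0.555, and with library size as the only scaling the log2 fold change was 0.35, with an adjusted p of 0.0904. That scaling also moved the median of all tested genes, from 0.03 to 0.28.

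Outside the Fos and Jun families, Atf3 encodes a stress-induced protein of the ATF family that can repress transcription. The protein can also form pairs with Jun proteins. The Atf3 gene lies on the minus strand of chromosome 1, 190751483 to 190799297 (MGP_BALBcJ_G0016878). The sham libraries held 60, 32 and 34 counts and the I/R libraries 6928, 2542 and 2786. As multiples of the sham mean, the I/R libraries were at 137.9, 57.6 and 63.1. Atf3 was the only member in which I/R replicate 2 was not above I/R replicate 3. The means of 95.2 ± 49.5 and 1.10 ± 0.388 CPM gave the log2 fold change of 6.43 ± 0.45 (SE, adjusted p = 0.000216), rank 64 of 18569. On the scale of log2(FPKM + 1), where the pseudocount shrinks changes of genes that are low in sham, it was 5.30.

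Maff encodes a small Maf protein, which has no activation domain and pairs with NF-E2-related and Bach factors as well as with Fos. Maff is on the plus strand of chromosome 15, 76858704 to 76870264 (MGP_BALBcJ_G0022039). Maff was at 69.3, 37.9 and 29.1 CPM after I/R, against 3.30, 2.17 and 2.47 CPM in the sham libraries. The lowest I/R library was 8.80 times the highest sham library. The means of 45.4 ± 21.2 and 2.65 ± 0.589 CPM gave a log2 fold change of 4.10 ± 0.36 (SE, adjusted p = 0.000353), or 3.49 on the log2(FPKM + 1) scale.

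Batf encodes a small bZIP protein, best known from T and B cells, that pairs with Jun proteins in place of Fos. It lies on the plus strand of chromosome 12, 83533779 to 83557285 (MGP_BALBcJ_G0019900), on the same chromosome as Fos. For Batf there were 93, 45 and 40 counts after I/R, against 5, 4 and 3 in the sham libraries, where 3 counts was taken as the floor of detection. Its fold rests on the few sham counts. The means of 1.39 ± 0.569 and 0.105 ± 0.021 CPM gave a log2 fold change of 3.69 ± 0.48 (SE, adjusted p = 0.00124), which was 1.21 on the log2(FPKM + 1) scale. Of the 8 listed T and B cell markers in the table, 6 had too few counts to be tested, and Lck was the 1 called higher. The list summed to 3.85 to 4.92 CPM in I/R and 1.31 to 2.77 CPM in sham, and its part in the level of Batf was not tested.

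**Figure D2:**
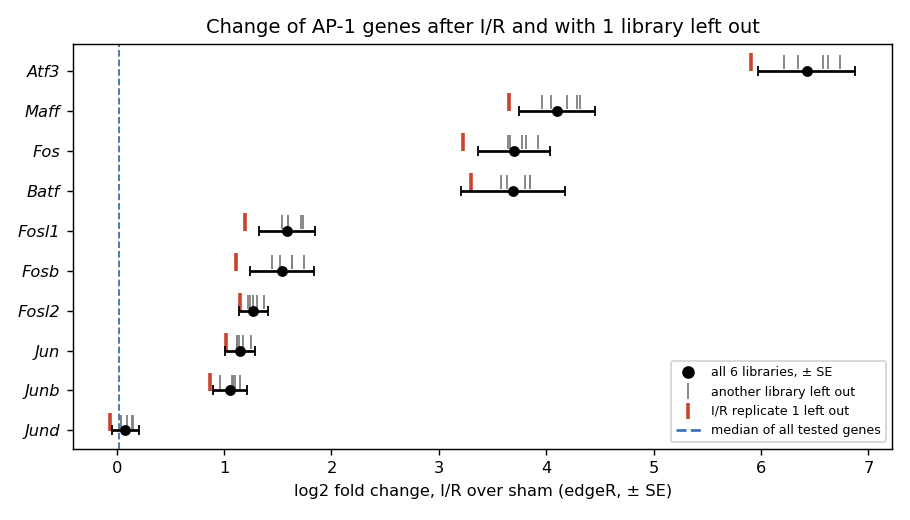
Log2 fold change of each AP-1 gene, I/R over sham (edgeR, points with bars of 1 SE), with ticks for the fits that leave out 1 library, the red tick for I/R replicate 1, and a dashed line for the median of all tested genes. The points run from 6.43 for Atf3 to 0.08 for Jund, the red tick is the lowest for each gene, and only that of Jund lies below 0.

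All 10 members were highest in I/R replicate 1, with 1.27 (Fosl2) to 2.28 (Atf3) times the mean of the other I/R libraries. The same library was the highest of the 3 I/R libraries in 73.1% of the 4054 genes called higher and in 41.8% of all tested genes. The coefficient of variation of the 10 members ran from 16.5% to 52.0% in I/R and from 4.02% to 35.1% in sham, and it was larger in I/R for all 10. Without I/R replicate 1 the 9 members were still called, with log2 fold changes of 5.91 for Atf3, 3.66 for Maff, 3.30 for Batf, 3.23 for Fos, 1.19 for Fosl1, 1.14 for Fosl2, 1.11 for Fosb, 1.02 for Jun and 0.87 for Junb.

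Markers of cell types moved with the groups and, in part, with that library. The summed level of 7 neuronal markers was 1776, 3213 and 3606 CPM in I/R and 6176 to 6473 CPM in sham, with all 7 lower. Markers of dentate granule cells (138 to 274 against 510.1 to 557 CPM, 6 of 6 lower) and of pyramidal cells (154 to 387 against 703 to 746 CPM, 5 of 6 lower) did the same. Of the 6 tested monocyte and macrophage markers, 4 were higher, and the list summed to 227, 103 and 98.7 CPM in I/R against 11.1 to 13.3 CPM in sham. Most of the I/R sums came from Cd14 alone, at 180, 82.8 and 70.1 CPM. Ccr2 was also higher, but low in level, at 0.58 to 2.18 CPM in I/R against 0.029 to 0.22 CPM in sham. Its log2 fold change was 3.27 (SE 0.71, edgeR adjusted p = 0.00809). Ms4a7 and Itgal did not pass. Of the 6 tested neutrophil markers, 4 were higher. The list summed to 40.8, 10.6 and 10.6 CPM in I/R against 4.33 to 5.87 CPM in sham. Ly6g, a defining neutrophil marker, had 0 or 1 count per library and was not tested. Cxcr2, also not tested, had 87, 10 and 9 counts in I/R and 0 in each sham library. Endothelial and pericyte markers (6 of 8 higher, 2 lower, 428 to 599 against 349 to 357 CPM) and fibroblast markers (4 of 6 higher, 190.4 to 289 against 145 to 172 CPM) lay above sham. Microglial markers split, 3 of 7 higher and 2 lower, with sums of 254 to 348 against 242 to 274 CPM, and astrocyte markers split 3 and 3 of 7, with Gfap higher and sums of 4345 to 4608 against 4340 to 4693 CPM. Oligodendrocyte markers (2 of 6 lower, 5883 to 6822 against 7015 to 8643 CPM) and those of their precursors (3 of 4 lower, 173.6 to 197 against 274 to 315 CPM) lay below sham. The 6 striatal markers, of which 1 rose and 1 fell, overlapped at 60.4 to 84.3 against 75.4 to 111 CPM. Their part in the changes of the AP-1 genes was not tested.

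Choroid plexus markers did not follow the groups, at 2268, 4908 and 139 CPM after I/R, against 171, 3767 and 6226 CPM in the sham libraries. By edgeR 0 of the 8 were called, and 0 had an unadjusted p under 0.05. Without the 2 libraries that were low in them, I/R replicate 3 and sham replicate 1, the 9 members were called with log2 fold changes of 1.2 (Junb) to 6.92 (Atf3).

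To compare levels between genes, FPKM was used, which divides by length. The deposited FPKM rests on a length that differs from the listed length for 4 members: 1092 against 2108 bases for Fos, 1469 against 1984 for Atf3, 3908 against 6537 for Fosl2 and 1918 against 1932 for Maff. Orders are therefore given both ways. Both ways use 2876 bases for Jund, whereas its only GENCODE transcript has 1668 bases. With that shorter length its level would be higher in both groups, so its place in each order depends on the length used. In sham, Junb (38.8 ± 3.83 FPKM) and Jun (38.3 ± 1.67) were highest and overlapped, followed by Jund (32.3 ± 2.50), Fosl2 (18.8 ± 0.965), Fos (7.36 ± 0.757), Fosl1 (5.87 ± 0.261), Fosb (2.04 ± 0.285), Maff (1.26 ± 0.289), Atf3 (0.689 ± 0.246) and Batf (0.10 ± 0.0206), with no other overlap between neighbours. Per listed length, Fos (3.82 ± 0.392) came below Fosl1 and Fosl2 was at 11.3 ± 0.577, and the rest of the order was as before.

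After I/R the order of levels was Fos (116 ± 63.0 FPKM), Jun (102 ± 22.8), Junb (96.9 ± 25.7), Atf3 (71.9 ± 41.1), Fosl2 (54.6 ± 11.9), Jund (41.0 ± 8.73), Maff (26.3 ± 13.5), Fosl1 (21.3 ± 9.88), Fosb (7.17 ± 3.61) and Batf (1.61 ± 0.742). Across libraries, each of the 8 genes from Fos to Fosl1 overlapped its neighbours among them, but these genes share the same libraries and all were highest in I/R replicate 1. Within every I/R library Junb lay above Atf3, Fosl2 above Jund, Jund above Maff and Maff above Fosl1, whereas the order of Fos and Jun, of Jun and Junb, and of Atf3 and Fosl2 varied between libraries. Per listed length Jun and Junb led, with Fos at 60.2 ± 32.6 and Atf3 at 53.2 ± 30.4, and Jund (41.0 ± 8.73) came above Fosl2 (32.6 ± 7.10).

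The make-up of each family was compared as the share of its summed FPKM. Within the Fos family, Fos held 62.9%, 54.5% and 52.7% after I/R, against 24.1%, 19.8% and 20.9% in the sham libraries. Fosl2 held 29.1% ± 5.80 in I/R and 55.2% ± 2.77 in sham (SD, n = 3 each). By FPKM, Fosl2 held the largest share of every sham library and Fos the largest of every I/R library. Fosl1 went from 17.2% ± 0.699 in sham to 10.7% ± 0.958 in I/R and Fosb from 5.99% ± 0.865 to 3.54% ± 0.211, although both genes rose in level. By FPKM the groups did not overlap for any of the 4 shares (exact two-sided permutation p = 0.1 each, the smallest possible). Counts per listed length gave the same directions, with Fos at 48.2% ± 4.88 in I/R and 16.6% ± 1.70 in sham and Fosl2 at 28.5% ± 5.59 and 49% ± 2.50. From raw counts, with no division by length, the share of Fos differed by 22.1 percentage points in place of 35.1, Fosl2 held the largest share of every library in both groups, and the groups overlapped for Fosb and Fosl1 (exact two-sided permutation p = 0.2 each).

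**Figure D3:**
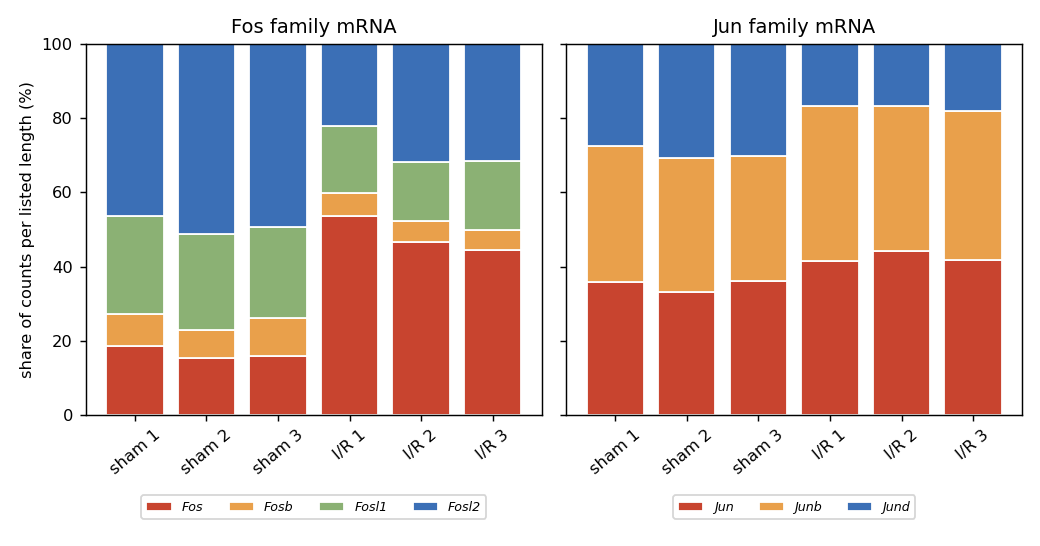
Share in percent that each gene held of its family's summed counts per listed length, for the Fos family and the Jun family, in each of the 6 libraries (stacked bars from 0 to 100). Fos is at 44.4% to 53.7% in the I/R libraries and 15.3% to 18.5% in sham, and Jund is at 16.7% to 18.0% against 27.6% to 30.9%.

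Within the Jun family, Jun held 42.6% ± 1.49 in I/R and 35.1% ± 1.77 in sham and Junb 40.3% ± 1.30 and 35.4% ± 1.56. Jund, the gene with no detected change in level, held 17.2% ± 0.700 in I/R and 29.5% ± 1.72 in sham. Both shares rest on a length of 2876 bases for Jund. With its GENCODE transcript of 1668 bases they would be larger, and those of Jun and Junb smaller, in each group. These shares did not overlap between the groups either (exact two-sided permutation p = 0.1 each). With Atf3, Batf and Maff added to the total, the differences of Jun and Junb turned, from 7.51 and 4.84 to -3.77 and -5.89 percentage points, and that of Jund was -16.6 in place of -12.4.

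The summed FPKM of the Fos family was 298.8, 166.3 and 132.9 after I/R, against 34.1, 34.3 and 33.9 in the sham libraries, a ratio of means of 5.84. The Jun family summed to 302, 226 and 191 FPKM after I/R, against 112, 114 and 102 FPKM, a ratio of 2.19. FPKM carries no TMM scaling, so neither ratio can be set beside the edgeR fold changes. TMM factors were 1.062 to 1.152 in I/R and 0.9077 to 0.9205 in sham, so both ratios are higher than they would be with TMM. Jund, for example, had means of 41.0 and 32.3 FPKM, but 107 and 101 CPM with TMM. Dividing one family by the other within a library removes this scaling. The Fos family over the Jun family was 0.807 ± 0.159 in I/R and 0.313 ± 0.0170 in sham by deposited FPKM, and 0.492 ± 0.0945 and 0.211 ± 0.0118 by counts per listed length (exact two-sided permutation p = 0.1 for each). The ratio was below 1 in every library, nearest to it in I/R replicate 1, at 0.989 by deposited FPKM.

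**Figure D4:**
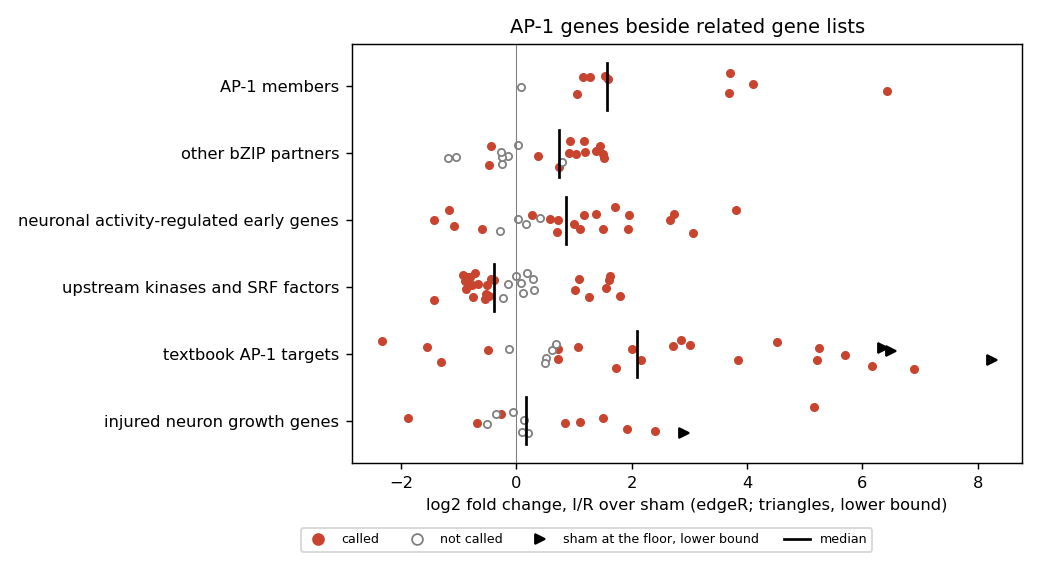
Log2 fold change of each tested gene, I/R over sham, for the AP-1 members and 5 related gene lists, with filled points for called genes, open points for others, triangles for lower bounds where sham was at the floor, and a bar for each median. The medians are 1.56 for the AP-1 members, 0.74 for other bZIP genes, 0.86 for early genes, -0.39 for upstream kinases and SRF factors, 2.09 for AP-1 targets and 0.17 for growth genes. Members and lists were chosen with earlier results of these data known, so the medians carry that choice.

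Of 25 other bZIP genes, which include further partners of AP-1 proteins, 21 were tested, and 11 rose, 2 fell and 8 did not pass (median log2 fold change 0.74). The share called higher was 52.4%, against 21.8% of all tested genes, of which 19.9% were called lower. Mafk, a small Maf like Maff, went from 20.0 ± 0.193 to 57.3 ± 18.1 CPM (log2 fold change 1.52, SE 0.20, adjusted p = 0.00135). Bach1, a repressor that works as a pair with small Mafs, rose by a log2 fold change of 1.50 (SE 0.18), and Nfe2l2, which encodes the antioxidant factor NRF2 and pairs with them too, rose by 1.17 (SE 0.17). Among partners from the stress branches, Cebpb rose by a log2 fold change of 1.45 (SE 0.19), Ddit3, the CHOP gene of the unfolded protein response, by 1.38 (SE 0.13) and Atf4 by 1.04 (SE 0.10), with adjusted p-values of 0.000385 to 0.00113. Mafg rose by a log2 fold change of 0.38 (SE 0.11, adjusted p = 0.0242) and was called under 11 of 18 other settings. Jdp2, which encodes a repressor that pairs with Jun, and Bach2 fell, with log2 fold changes of -0.44 (SE 0.10, adjusted p = 0.00815) and -0.48 (SE 0.13, adjusted p = 0.0177), and were called under 13 and 10 of the other settings. With library size as the only scaling, 13 of the list were called, each of them higher. Atf2, a partner of Jun, had a log2 fold change of -0.25 (SE 0.12, adjusted p = 0.135) and Batf3, a relative of Batf, one of 0.79 (SE 0.29, adjusted p = 0.0599). Batf2, with 22, 7 and 23 counts after I/R, against 5, 6 and 0, was not tested.

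A list of 33 genes placed above AP-1 held kinases, scaffolds and SRF factors, and also Ppp3ca and Nfatc1. Of these genes 31 were tested, and 7 rose, 16 fell and 8 did not pass (median -0.39). Those that rose were 22.6% of the tested list, near the 21.8% of all tested genes called higher. Of all tested genes, 19.9% were called lower. With library size as the only scaling 11 rose and 10 fell, so the balance of directions depended on scaling. The largest rises were those of 3 kinases: Map3k8 (TPL2), by a log2 fold change of 1.80 (SE 0.27, adjusted p = 0.00204), Map2k3, an activator of p38, by 1.62 (SE 0.22, adjusted p = 0.00129), and Map3k14 (NIK), by 1.61 (SE 0.21, adjusted p = 0.00111). The largest falls were those of Ppp3ca, a calcineurin subunit abundant in neurons (-1.43, SE 0.32, adjusted p = 0.00927), Mapk8ip2, a JNK scaffold (-0.92, SE 0.15, adjusted p = 0.00268), and Map2k1, which encodes MEK1 (-0.88, SE 0.19, adjusted p = 0.00774). Neuronal markers fell in the same libraries, as given above, and their part in these falls was not tested.

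Of 31 textbook AP-1 targets, 28 were tested, and 19 rose, 4 fell and 5 did not pass (median 2.09). The share called higher was 67.9%, against 21.8% of all tested genes. This list was written with earlier results of these data known, so its counts and median carry that choice. Mmp3, the gene of stromelysin, had 1548, 930 and 604 counts after I/R but 0 in each sham library, so it was at least 304.3-fold higher than a floor of 3 counts per library. Mmp12, the gene of macrophage elastase, had 306, 308 and 200 counts and 0 in sham, which was at least 81.7-fold above it. The cytokine gene Il6 had 451, 239 and 224 counts against 1, 0 and 0, at least 90.3-fold above the floor. The floor covers counting error only. Among the genes that fell were the neuropeptide gene Pdyn, a log2 fold change of -2.33 (SE 0.16, adjusted p = 0.000215), the cell death gene Hrk, known in neurons as a target of Jun, at -1.55 (SE 0.25, adjusted p = 0.00242), and Lor, the gene of loricrin, at -1.30 (SE 0.20, adjusted p = 0.00206). Of the tested monocyte and macrophage markers, 4 of 6 were higher in the same I/R libraries, as were 4 of 6 neutrophil markers. The part of these markers' cells in the rises was not tested.

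Of 19 genes that injured neurons switch on with Jun and Atf3 during regrowth, 16 were tested, and 7 rose, 3 fell and 6 did not pass (median 0.17). The share called higher was 43.8%, against 21.8% of all tested genes, of which 19.9% were called lower. Sprr1a, known from injured sensory neurons, had 33, 21 and 21 counts in I/R and 0 in each sham library, at least 7.47-fold higher. Socs3, a brake on cytokine signalling, rose by a log2 fold change of 5.17 (SE 0.36, adjusted p = 0.000215) and Gadd45a, a DNA damage response gene, by 2.41 (SE 0.26, adjusted p = 0.000680). Among the falls, Basp1 at -0.69 (SE 0.20, adjusted p = 0.0251) and Lifr at -0.27 (SE 0.09, adjusted p = 0.0441) were called under 10 and 5 of the 18 other settings. With library size as the only scaling 9 rose and 1 fell.

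Among 24 other genes known for rapid induction by neuronal activity, 16 rose, 4 fell and 4 did not pass (median 0.86). The share called higher was 66.7%, against 21.8% of all tested genes, of which 19.9% were called lower. Npas4, a neuronal transcription factor, rose by a log2 fold change of 3.81 (SE 0.27, adjusted p = 0.000238), Nptx2, a secreted synaptic protein gene, by 3.06 (SE 0.12, adjusted p = 4.45e-05) and Ier3 by 2.73 (SE 0.38, adjusted p = 0.00154). The nuclear receptor genes Nr4a3 and Nr4a2 fell, at -1.43 (SE 0.26, adjusted p = 0.00428) and -1.08 (SE 0.16, adjusted p = 0.00203), as did Egr4 at -1.17 (SE 0.16, adjusted p = 0.00144). Nr4a2 is also among the pyramidal cell markers counted above. Neuronal markers were lower in the same I/R libraries, and their part in these falls was not tested. 

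The 4 members whose promoter windows held TGACGT on either strand, Fos, Atf3, Batf and Maff, had log2 fold changes of 3.69 to 6.43, and the 5 other members with a window had 0.08 to 1.54. This split was seen after the values were known and is not tested. Maff had 3 windows, of which only the second held the letters, whereas each other member had 1 window. Fosl1, with a log2 fold change of 1.59, had no window. Over all tested genes with a window, the median log2 fold change was 0.05 for the 1469 with TGACGT and 0.01 for the 10405 without it, and 24.8% and 22.7% of them were called higher. The letters were in the windows of 12.4% of all tested genes and of 13.4% of those called higher.

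The genes whose profile was most like that of each member were found by Euclidean distance over the 6 libraries between log2 CPM values centred on the sham mean. This measure says how alike 2 genes were in size and spread of the change, and it carries no test. Closest to Fos were Anxa2 (distance 0.358), Nes (0.361) and S100a11 (0.384). Closest to Maff were C3ar1 (0.407), Ctla2a (0.476) and Ch25h (0.479), and closest to Batf were Vim (0.334), Spon2 (0.370) and Cdkn1a (0.401). The nearest genes to Atf3 were farther from it, with Cd72 at 0.644, 1200007C13Rik at 0.950 and Rn7sk at 1.02. The smaller changes had closer neighbours, with Abcb1b at 0.0757 of Fosl1, Adamts4 at 0.171 of Fosb, Usp36 at 0.135 and Hspa5 at 0.142 of Fosl2, Lsg1 at 0.127 of Jun, Dap at 0.148 of Junb and Slx4 at 0.0811 of Jund.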

How the data were processed

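Hippocampal RNA of 3 I/R and 3 sham pools was sequenced. Per the study's methods, the authors aligned reads with TopHat2 to an Ensembl genome and counted them per gene with HTSeq. The submitters' processing notes also name Bowtie 0.12.2 and mm8. The deposited table gives raw counts and the authors' FPKM, counts scaled to a gene length and to the library's reads. Of 110521 FPKM values with 10 or more counts, 34.8% were within 1% of the value from the listed length. The authors' own fold changes and p-values were not used. Of 41386 genes (4 split lines were rejoined), 40303 had BALB/cJ identifiers, although the strain was C57BL/6. The multiple-read and strand settings are not given in the sources used here. Of the 50-base stretches of the members' GENCODE transcripts, 0 lay in another gene's transcript.

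The raw counts were fitted by edgeR 4.0.16 under R 4.3.3 (filterByExpr, TMM, robust quasi-likelihood F-test, no covariates), with Benjamini-Hochberg adjustment over 18569 genes. SE is the log2 fold change over the square root of F. Totals were 37493042 to 44788547 counts, and 3 counts were 0.0659 to 0.0872 CPM of the TMM-scaled library sizes. The fit was tested on simulated counts. DESeq2 1.42.0 and limma 3.58.1 served as alternatives. The members and lists were chosen with earlier results of these data known. The text names all members, the 3 largest rises and falls called in each list, known partners of the members, and for each member up to 3 nearest genes. A gene that this rule names is not reported here. Promoter sequences are from RefSeq (GRCm38.p6) and were matched by symbol for 9 of 10 members.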

Additional observations from a re-analysis of the deposited data

How the results depend on the processing

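Under all 18 alternative settings of the fit, 9 members were called higher. With a fold change over 2, 2760 of all genes, 7 of the other bZIP genes and 8 of the upstream genes were called, in place of 7756, 13 and 23. The log2 fold change of Jund, 0.08, ran from -0.060 (without I/R replicate 1) to 0.15 (without I/R replicate 3) with 1 library left out. The highest adjusted p of a called member was 0.0324, for Fosb without sham replicate 2. Leaving out 1 library at a time gave 5330 to 7976 calls over all genes. Scaling by library size alone called 8361 genes, 75.8% of them higher, against 52.3% with TMM, and with log2(FPKM + 1) 8090 were called, 75.1% of them higher. The deviations of same-numbered I/R and sham libraries from their group means had correlations of -0.0967, 0.0556 and -0.184. The highest of any pair was 0.267, for I/R replicate 3 and sham replicate 1. With 3 libraries a group, such correlations cannot decide whether the numbers pair the libraries. With the replicate number as a block, 6332 genes and 9 members were called.

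Shares within a family, as I/R minus sham in percentage points, depended on the unit and on the total. From raw counts the difference was 22.1 for Fos, -1.26 for Fosb, -1.25 for Fosl1, -19.6 for Fosl2 and 9.68 for Jun. From deposited FPKM these were 35.1, -2.45, -6.53, -26.2 and 7.51. Counts per listed length, chosen after seeing the data, gave -8.04 for Fosl1. With Atf3, Batf and Maff added to each family's total the difference was 17.8 for Fos, -9.07 for Fosl1, -32.5 for Fosl2 and -16.6 for Jund, and it turned to -3.77 for Jun and -5.89 for Junb, because the 3 added genes take up part of the I/R total. With 3 libraries a group no exact test could reach a p under 0.1, and Batf, at 3 to 5 counts in sham, is the member that depth limits most.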
